A study of Capra hircus with 2 samples.

Results

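The miR-200 epithelial family, made up of miR-200a, miR-200b, miR-200c, miR-141 and miR-429, was followed through small RNA libraries of the dairy goat mammary gland. The 5 members were taken by name from the 346 conserved goat miRNAs that the study listed. A sequenced tag was given to a member when its first 18 bases or more were identical to the listed sequence, whatever its 3′ end, and each tag went to the listed miRNA with the longest match. By this rule 395 of 788915 unique tags of the dry period library (D) and 290 of 1108514 of the peak lactation library (P) belonged to a member, and 0 of them fitted another listed miRNA equally well. Mammary tissue came from 2.5-year-old Xinong Saanen goats, and RNA of 3 goats was pooled per stage, so that each stage was 1 library without replicates. Per the study's methods, goats had lambed 320 days before sampling for D and 75 days before sampling for P. In the sample labels these days are exchanged, and the stages here follow the sample titles. The dry period is the phase in which milk is no longer secreted, and at peak lactation secretion is highest. No p-value or interval below covers differences between goats or between library preparations, since all of them come from the counting of reads alone.

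The miR-200 family is a hallmark of epithelial cells. Its members repress the transcription factors ZEB1 and ZEB2, which silence E-cadherin, and ZEB1 and ZEB2 in turn repress the genes of the family, so that both sides form a feedback loop in the transition between epithelial and mesenchymal states. In the mammary gland, the ducts and the milk-secreting alveoli are epithelial, whereas fibroblasts, vessels and fat cells of the stroma are not.

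The listed sequences are shown because the seed, bases 2 to 8 of a miRNA, decides most of its target choice, and because the members form 2 seed groups that cut across their gene order. Capitals mark the seed, and each sequence reads 5′ to 3′. The first pair shares the seed AACACUG and the other members share AAUACUG.
miR-200a: uAACACUGucugguaacgauguu
miR-141: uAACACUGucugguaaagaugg
miR-200b: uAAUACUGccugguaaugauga
miR-200c: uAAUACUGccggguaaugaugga
miR-429: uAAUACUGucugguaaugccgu

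None of the other listed conserved miRNAs carried either seed. Counting positions from 1 at the 5′ end, miR-200b and miR-200c differed at 2 of 22 bases (U11G and A22G, miR-200b base first). Between miR-200a and miR-141 the differences were C17A and U22G, with the miR-200a base first. All members were 22 or 23 nt long, so their reads could be set side by side without scaling by length. In the RefSeq annotation of the goat assembly ARS1.2, MIR429, MIR200A and MIR200B lie next to each other, and MIR141 lies next to MIR200C. The clusters therefore each hold members of both seeds. No genome build is named for the deposited tags, and coordinates are not given here.

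The most abundant member in both libraries was miR-200a. It had 15595 reads in D and 6480 in P, or 1050 and 412 reads per 1000000 clean reads (RPM). The second member, miR-200b, had 11108 and 6058 reads (748 and 386 RPM). The next was miR-200c with 7394 and 5725 reads (498 and 364 RPM). In rank among the 346 listed miRNAs, the 3 members took places 40, 46 and 56 in D and 41, 43 and 44 in P. The remaining members were several-fold lower. For miR-141 there were 991 and 986 reads (66.7 and 62.8 RPM), and for miR-429 1695 and 450 reads (114 and 28.6 RPM). All values lay far above the smallest abundance that 3 reads could show, which was 0.202 RPM in D and 0.191 RPM in P.

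**Figure D1:**
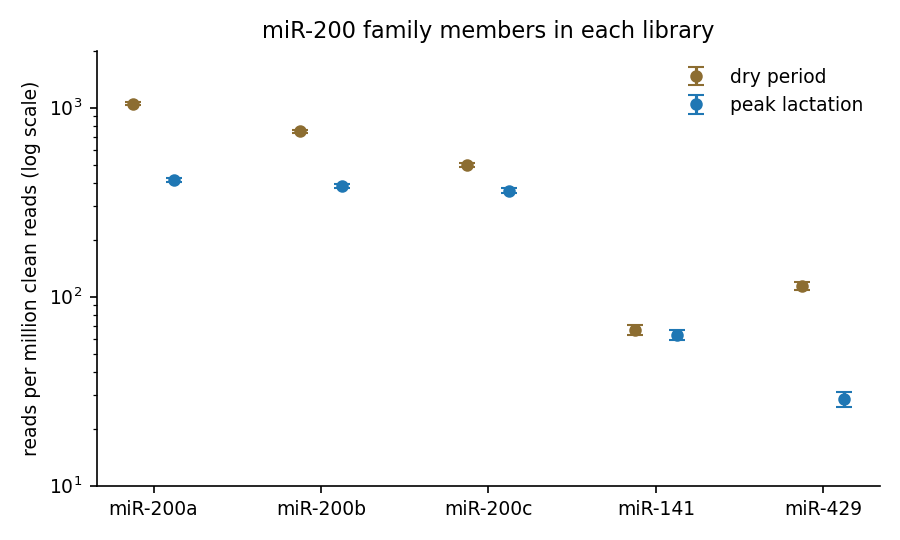
Reads per 1000000 clean reads (RPM, log axis) of each miR-200 family member in D (dry period) and P (peak lactation), with 95% Wilson intervals of the counting of reads, 1 library per stage. The 3 most abundant members lie between 498 and 1050 RPM in D and between 364 and 412 RPM in P, and miR-141 and miR-429 exchange places. The lower values per clean read in P turn into higher ones per conserved miRNA read as counted here, for miR-429 only within counting error. Under the other denominators tried, not every member turns.

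The order of the members changed at its lower end. In D, miR-429 exceeded miR-141 by a ratio of 1.71 (95% interval 1.58 to 1.85), and in P, miR-141 exceeded miR-429 by a ratio of 2.19 (1.96 to 2.45). At the upper end the members drew together. The ratio of miR-200a to miR-200b was 1.40 (1.37 to 1.44) in D and 1.07 (1.03 to 1.11) in P, and that of miR-200b to miR-200c was 1.5 (1.46 to 1.55) and 1.06 (1.02 to 1.10). Within the family, miR-200a made up 42.4% of the reads in D and 32.9% in P, while miR-200c went from 20.1% to 29.1%. The share of miR-200b was 30.2% and 30.8%.

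Per clean read, the level of every member was lower in P than in D, with intervals below 0 for all but miR-141. Per conserved miRNA read as counted here, all but miR-429, which was within counting error, were higher in P. Under the other denominators tried, the members did not all change in the same direction. The values that follow are per clean read. For miR-429 the level fell by 1.99 on the log2 scale (95% interval -2.14 to -1.84), to 25.1% of its dry period level (exact Audic-Claverie p = 5.49e-185). The value for miR-200a fell by 1.35 (-1.39 to -1.31). Both passed the study's thresholds, more than 1 in either direction on the log2 scale and p below 0.01. For miR-200b the log2 fold change was -0.96 (-1.0 to -0.91), just short of the fold threshold. For miR-200c it was -0.45 (-0.50 to -0.40, exact Audic-Claverie p = 5.25e-71), below the fold threshold despite the small p. For miR-141 it was -0.09 (-0.22 to 0.04, exact Audic-Claverie p = 0.172), so that no difference between the libraries was detectable per clean read. These tests compare the 2 libraries and not the stages.

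Most conserved miRNAs were lower per clean read in P, and 4 of the 5 members lay above their median. Of the 257 conserved miRNAs that reached 1 RPM in a library, 174 (67.7%) were called lower at peak lactation and 3 (1.17%) higher, against 2 and 0 of the 5 members. The median log2 fold change of the tested miRNAs was -1.44, with quartiles at -2.15 and -0.92, and 247 of them were below 0. The members had a median of -0.96. Above the median of all tested miRNAs were miR-141 by 1.35, miR-200c by 0.99, miR-200b by 0.48 and miR-200a by 0.09. The remaining member, miR-429, lay below it by 0.56. Ranked from the highest log2 fold change, miR-141 was at place 12 and miR-200c at place 32 of 257.

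The direction of miR-200a, miR-200b, miR-200c and miR-141 depended on the denominator. By the counting rule used here, conserved miRNAs took 61.1% of all clean reads in D and 14.4% in P, a difference of -2.08 on the log2 scale. The study, matching reads to miRNA precursors, counted fewer conserved miRNA reads in D and more in P, so its difference was smaller. Its totals were not tried as denominator. Their smaller difference would lower every value per conserved miRNA read, so the values and signs given are those of the present rule only. Per conserved miRNA read, the log2 fold change was 2.00 for miR-141, 1.63 for miR-200c, 1.13 for miR-200b, 0.74 for miR-200a and 0.09 for miR-429. The last of these was within counting error (exact Audic-Claverie p = 0.254), and under each of the other 4 denominators tried miR-429 was lower in P. The order of the members and the distances between them were the same on both scales. Without let-7 among the conserved miRNA reads, miR-200a was at -0.21, miR-200b at 0.18 and the family sum at 0.15. Per read of 21 to 23 nt these were at -0.52, -0.12 and -0.15. With either of these denominators miR-200c and miR-141 stayed above 0. In tissue RNA, fewer epithelial cells and less of a miRNA per cell cannot be told apart.

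**Figure D2:**
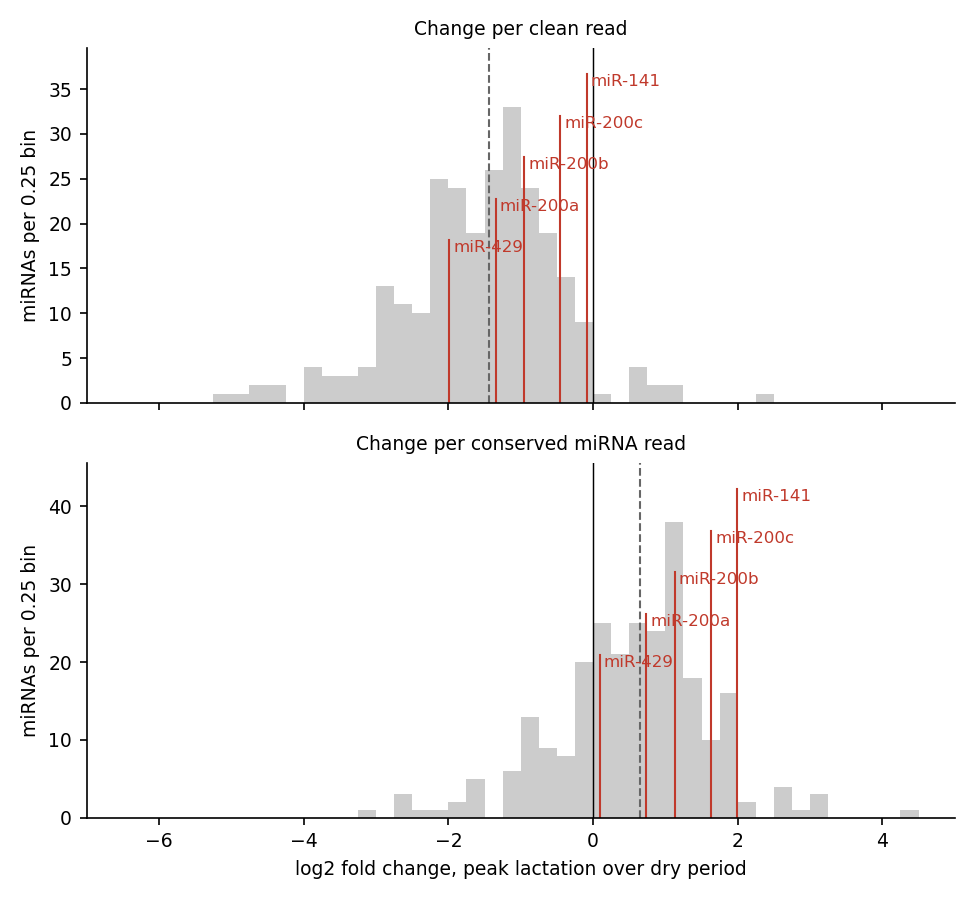
Histograms of the log2 fold change (peak lactation over dry period) of the 257 tested conserved miRNAs, per clean read above and per conserved miRNA read below, with the family members as red lines and the median of all tested miRNAs dashed. Per clean read all 5 members lie below 0, and per conserved miRNA read as counted here all lie above it (miR-429 within counting error). On both scales miR-141, miR-200c, miR-200b and miR-200a lie above the median and miR-429 below it.

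Differences between members do not depend on the denominator, because the library total cancels. All 10 pairs of members differed in their log2 fold change by more than the counting error. The largest difference was that of miR-141 and miR-429, 1.91 (1.71 to 2.10), and the smallest that of miR-141 and miR-200c, 0.36 (0.23 to 0.50). Members that share a seed differed too, miR-141 from miR-200a by 1.26 (1.13 to 1.39) and miR-200b from miR-429 by 1.04 (0.88 to 1.2). The latter pair also shares its cluster. Whether 2 libraries of the same stage would differ as much was not tested, since there were none.

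By gene cluster, the sum of miR-200c and miR-141 was reduced less per clean read than that of miR-200b, miR-200a and miR-429. The summed reads of miR-200c and miR-141 were 8385 and 6711 (565 and 427 RPM), a log2 fold change of -0.40 (-0.45 to -0.36). For miR-200b, miR-200a and miR-429 together they were 28398 and 12988 (1912 and 827 RPM), a log2 fold change of -1.21 (-1.24 to -1.18). The clusters thus differed by 0.81 (0.75 to 0.86) on the log2 scale, and each of the 6 pairs that cross the clusters differed in the same direction, by 0.51 to 1.91. Together, miR-200c and miR-141 made up 22.8% (22.4 to 23.2) of the family's reads in D and 34.1% (33.4 to 34.7) in P. By seed, the sum with AAUACUG changed by -0.80 (-0.84 to -0.77) and that with AACACUG by -1.23 (-1.27 to -1.19), a difference of 0.43 (0.38 to 0.48). The sign of each sum was turned by scaling to conserved miRNA reads as counted here, where the clusters were at 1.68 and 0.87.

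The whole family had 36783 and 19699 reads, or 2477 and 1254 RPM, a log2 fold change of -0.98 (-1.01 to -0.96) per clean read and 1.10 per conserved miRNA read. Its share of all conserved miRNA reads was 0.405% in D and 0.869% in P. Among conserved miRNAs with at least 100 reads in a library, those nearest to this log2 fold change were miR-101 (-0.99), miR-191 (-0.97), miR-130a (-1.01), miR-124a and miR-124b (both -1.01, from the same 112 and 59 reads). This likeness rests on 2 libraries only.

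Other miRNAs known from epithelial cells were detected in both libraries and ranged more widely than the family. Of 6 such miRNAs, 5 were called lower at peak lactation and 0 higher, where 67.7% and 1.17% of all tested miRNAs were. Their median log2 fold change was -2.84, against -0.96 for the family and -1.44 for all tested miRNAs. The most abundant, miR-375, had 323 and 247 RPM and a log2 fold change of -0.39 (-0.45 to -0.33), close to miR-200c. miR-205, known from basal epithelium, had 210 and 88.6 RPM (log2 fold change -1.25), close to miR-200a. At the other extreme, the jointly encoded miR-183, miR-96 and miR-182 had 101, 75 and 489 reads in D and 5, 4 and 36 in P, log2 fold changes of -4.42, -4.31 and -3.85. Their sum, dominated by miR-375 and miR-205, went from 590 to 342 RPM. The remaining one, miR-31, had 185 and 55 reads (log2 fold change -1.83). Per conserved miRNA read, miR-375 (1.70) and miR-205 (0.84) turned higher, miR-31 was at 0.25, and miR-183, miR-96 and miR-182 stayed lower.

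For miRNAs of other cell types, too, the calls are to be read against the 67.7% of all tested miRNAs that were called lower and the 1.17% called higher. Of 9 miRNAs known from fibroblasts and smooth muscle, 8 were called lower, and their sum went from 27602 to 8963 RPM, a log2 fold change of -1.62. It was led by miR-199a-3p (9963 and 1284 RPM) and miR-143 (8544 and 4711 RPM). Per conserved miRNA read the sum was at 0.46, through miR-143 (1.23) and miR-140 (0.90), while the other 7 of the 9, miR-199a-3p (-0.87) among them, were below 0. Of 6 immune miRNAs, 4 were called lower (sum 511 and 186 RPM, log2 fold change -1.46), and of 4 striated muscle miRNAs, 3 (sum 7241 and 3847 RPM, -0.91, nearly all of it miR-1). The endothelial miR-126 and miR-126* had 129 and 81.4 RPM together, and neither was called. Of 3 red blood cell miRNAs, miR-451 (51.3 and 108 RPM) and miR-144 (17.0 and 35.4 RPM) were called higher, while miR-486 had 41.5 and 46.1 RPM. The part of these cell types in the values of the family was not tested.

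The 3′ ends of the 3 abundant members differed widely from each other and little between the libraries, whereas those of miR-141 and miR-429 moved between the libraries. For miR-200a, 53.9% of the reads in D and 52.0% in P ended at the listed base, and 19.2% and 19% were longer, mostly by a U (15% and 14.5% of its reads). For miR-200c, 42.0% and 43.2% had the listed end and 39.4% and 39.7% were shorter. miR-200b was the opposite case, with only 5.68% and 5.71% shorter and 57.1% and 59.6% longer than the listed sequence. Its longer reads carried C (23.9% and 23.5% of its reads), CA (12% and 11.2%) or CU (10.7% and 14.2%). In miR-429, too, longer reads were frequent, and their share was lower in P (42.2% and 34.4%, a difference of -7.74 percentage points, 95% interval -12.6 to -2.67). In miR-141 it was higher (26.0% and 31.5%, a difference of 5.51 points, 1.52 to 9.48). The listed end of miR-141 and miR-429 was found in 29.4% to 34.1% of the reads.

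**Figure D3:**
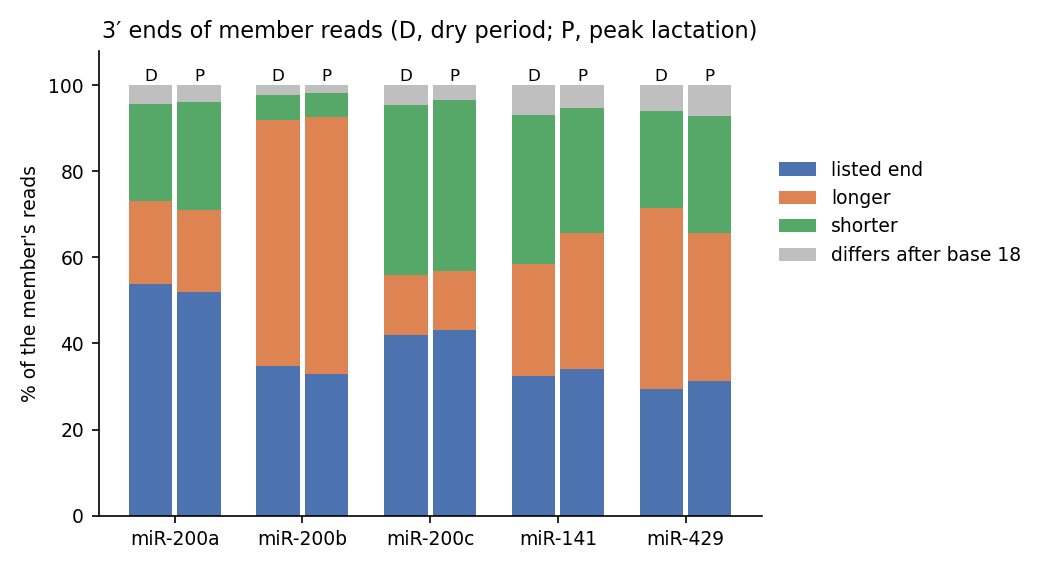
Share of each member's reads (%) that end at the listed 3′ base, are longer, are shorter, or differ from the listed sequence after base 18, in both libraries (D, P). Longer reads make up most miR-200b reads (57.1% and 59.6%) and few miR-200c reads (14% and 13.6%), and in P miR-141 and miR-429 have similar bars.

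The longer form with C was also in the study's list of candidate miRNAs. Of the 94 candidates in the list used here, only novel_mir_12 shared 18 or more bases from the 5′ end with a member. It is miR-200b with C added after its last base:
novel_mir_12: uAAUACUGccugguaaugaugac

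This 23 nt form had 2655 and 1426 reads, 23.9% (23.1 to 24.7) and 23.5% (22.5 to 24.6) of the miR-200b reads, which already include it. The study measured novel_mir_12 by stem-loop PCR, and reported its expression as tissue specific and as high at the different mammary stages. Its precursor, which the study sequenced from goat DNA, holds miR-200b itself. It is shown because it allows the other arm and the loop to be read. Capitals mark the 5p arm and the listed miR-200b, which is the 3p arm:
precursor of novel_mir_12: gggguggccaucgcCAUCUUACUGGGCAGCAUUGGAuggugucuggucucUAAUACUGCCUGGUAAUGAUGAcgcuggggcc

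Reads of both arms were found, and none in the middle of the loop between them. Positions 39 to 48 of the 82 nt precursor were covered by 0 reads in either library. The 5p arm had 1161 reads in D and 859 in P (78.2 and 54.7 RPM). Its most frequent tags began at position 15 and differed by the last base, with seed bases in capitals:
5p tag of 22 nt: cATCTTACtgggcagcattgga
5p tag of 21 nt: cATCTTACtgggcagcattgg

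The 22 nt tag led in D with 456 against 417 reads, and the 21 nt tag led in P with 373 against 285. With the 3p arm counted at its listed start only, the 5p arm made up 9.46% (8.96 to 9.99) of the reads of both arms in D. In P it made up 12.4% (11.7 to 13.2), a difference of 2.96 percentage points (2.03 to 3.90). Its log2 fold change was -0.52 (-0.64 to -0.39) per clean read, 0.44 (0.31 to 0.58) above that of the 3p arm at the listed start. Adding 3p reads with shifted starts would lower these shares, and it brought the log2 fold change of the 3p arm to -0.84, nearer to that of the 5p arm. Hairpins of the other 4 members were not analysed here.

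**Figure D4:**
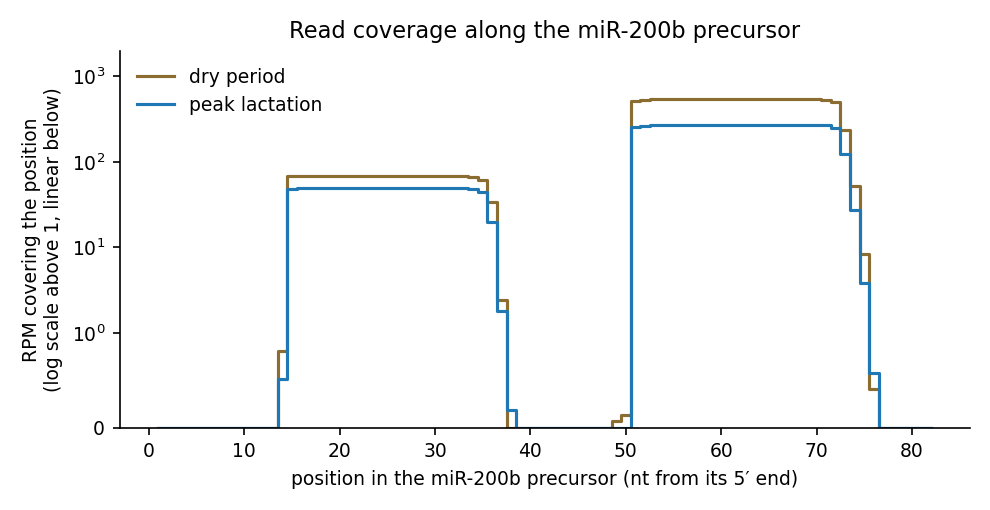
Reads per 1000000 clean reads (RPM) that cover each position of the 82 nt miR-200b precursor and are identical to it (log scale above 1 RPM, linear below), in both libraries. The left plateau is the 5p arm and the right one miR-200b, and positions 39 to 48 between them are at 0.

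miR-200b also stood apart by its 5′ starts, and a shifted start gives another seed. Reads that began within 2 bases of the listed start at another base, and held at least 18 listed bases, made up 22.6% (22 to 23.3) of its reads in D and 28.8% (27.8 to 29.7) in P, a difference of 6.12 percentage points (4.94 to 7.30). Of the conserved miRNAs with at least 1000 reads, miR-200b had rank 10 of 105 in D and rank 6 of 79 in P by this share, and the medians were 0.826% and 0.818%. In the other members the shares were lower, at 5.6% and 4.99% for miR-200a and between 1.10% and 1.79% for miR-200c, miR-141 and miR-429. For miR-200a most of them began 1 base later, and for miR-200c 1 base earlier.

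**Figure D5:**
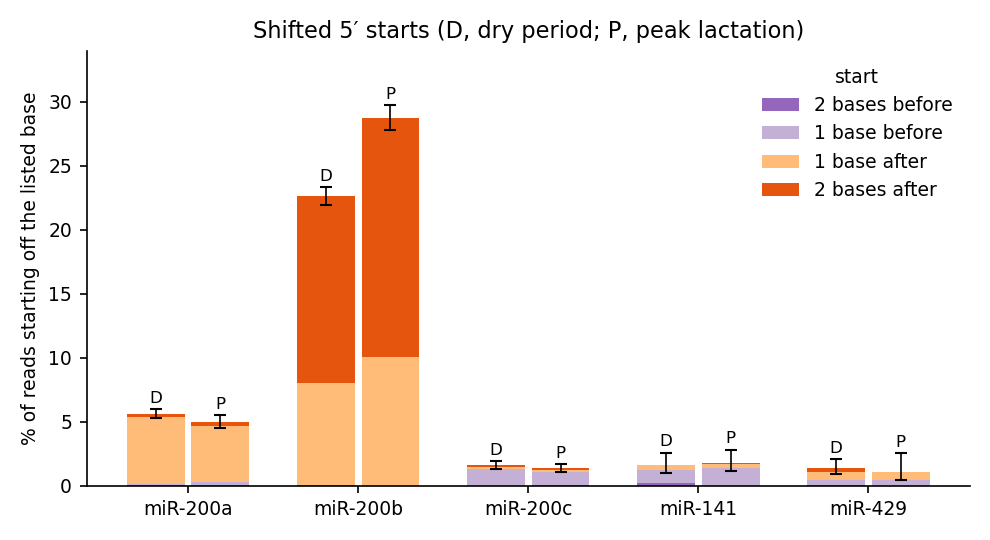
Share of each member's reads (%) that start 1 or 2 bases before or after the listed 5′ base, in both libraries (D, P), with 95% Wilson intervals of the total. miR-200b reaches 22.6% and 28.8%, nearly all from starts 1 or 2 bases later, miR-200a about 5%, and the other members stay below 2%.

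The leading tags at the 3 starts of miR-200b are shown with the seed that each start gives in capitals.
listed start: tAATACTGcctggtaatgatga
1 base later: aATACTGCctggtaatgatgact
2 bases later: aTACTGCCtggtaatgatgactt

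The listed sequence had 3873 reads in D and 1998 in P. The leading tag 1 base later had 661 and 470 reads, and the leading tag 2 bases later 929 and 559. All reads of the later starts together were 3237 and 2440 (218 and 155 RPM), a log2 fold change of -0.49 (-0.56 to -0.41), which was 0.47 (0.38 to 0.56) above that of the listed start. They therefore lost less per clean read than the listed form, and per conserved miRNA read they gained more. Later starts came with other 3′ ends. Where the end of a read ran past its match to the precursor, the unmatched bases were U alone in 12.1% and 15.1% of the reads with the listed start, in 59.8% and 56.5% of those 1 base later and in 66.0% and 63.9% of those 2 bases later. Reads that matched the precursor to their last base were 68.8% and 66.3% at the listed start and between 8.93% and 14.2% at the later ones.

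A base change inside the seed was found in miR-200b as well. Among reads identical to miR-200b over the first 20 bases apart from base 5, A5G was carried by 279 reads in D (2.47%, 2.20 to 2.78) and by 166 in P (2.69%, 2.31 to 3.12), counting from 1 at the 5′ end with the listed base first. The difference of 0.21 percentage points had an interval from -0.27 to 0.72. The change turns the seed into AAUGCUG, and its tag with the listed 3′ end, which had 98 and 60 reads, is shown with base 5 in capitals:
miR-200b A5G: taatGctgcctggtaatgatga

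Among A-to-G changes at the A positions of miRNAs with at least 1000 reads, this share had rank 3 of 517 in D and rank 3 of 394 in P, where the median positions had 0.047% and 0.049%. At the other A positions of the members an A-to-G change reached at most 0.367% in D and 0.833% in P. Of other kinds of change, U14G was found in every member, at 1.17% and 1.59% in miR-200c and at 1.08% and 1.80% in miR-429. In reads of miR-200b that began 1 base later, A5G was found in 0.96% and 0.93%, and in those 2 bases later in 0.43% and 0.75%. The source of A5G was not tested.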

How the data were processed

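Small RNA of mammary gland tissue (below 30 nt) was sequenced in 2 libraries. The authors removed low-quality reads, adaptor contaminants and reads below 18 nt, collapsed identical reads, and deposited each tag with its raw count of clean reads (totals of 14851375 in D, the dry period library, and 15712891 in P, the peak lactation library), neither normalized nor aligned. CASAVA is named in the submitters' processing notes, and its version is not given in the sources used here. Each count was scaled to 1000000 clean reads of its library (RPM), with 0.01 RPM in place of 0, and only miRNAs with 1 RPM or more in a library were tested. Fold changes are P over D on the log2 scale, with an interval from the split of reads (Wilson, 95%). The two-sided Audic-Claverie probability was computed for each of the 257 tested miRNAs from its own counts and the library totals. Differences of shares have Newcombe intervals, and differences of log2 fold changes have normal intervals on the log scale. With 1 library per stage, edgeR and DESeq2 could not estimate a spread and served for scaling only. Substitutions were read over the first 20 bases, for miRNAs with at least 1000 reads and for all members. Tags were matched to the study's listed miRNA, candidate and precursor sequences, and its read counts were not used. The named miRNAs are the 5 members, the candidate that shares 18 bases with one, marker lists, and the 5 miRNAs with at least 100 reads nearest to the family in log2 fold change. The members and lists were chosen with earlier results of these data known. Alternatives covered counting rules, denominators, TMM factors (edgeR 4.0.16), size factors (DESeq2 1.42.0, R 4.3.3), filters and tests. Scripts ran in Python 3.11.15 (scipy 1.17.1, numpy 2.4.6, matplotlib 3.10.9), and both the assignment of tags and the calls were tested on simulated data.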

Additional observations from a re-analysis of the deposited data

Results flagged for a closer look

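Signals outside the counts of the listed miRNAs were found for miR-200b, all above the limit of 3 reads that a count of 0 allows. Its 5p arm, which is not among the listed members, had 1161 reads in D and 859 in P. Reads with A5G, which the counting rule leaves out of miR-200b, numbered 279 and 166. With 1 library per stage, no library was compared with others of its stage.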

How the results depend on the processing

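No paired analysis was possible because each stage had 1 library, and for the same reason no library could be left out. The denominator set the direction, except for miR-429, whose one turn was within counting error. With reads of conserved miRNAs as denominator the log2 fold changes were 0.74 (miR-200a), 1.13 (miR-200b), 1.63 (miR-200c), 2.00 (miR-141), 0.089 (miR-429), 1.10 (family), 0.87 (sum of the MIR200B cluster) and 1.68 (sum of the MIR200C cluster), with 15 miRNAs called lower and 85 higher. Without let-7 in that denominator they were, in the same order, -0.21, 0.18, 0.68, 1.05, -0.86, 0.15, -0.075 and 0.73, with 59 and 14 called. With TMM factors they were -0.049, 0.34, 0.85, 1.21, -0.70, 0.32, 0.089 and 0.90, with 48 and 21 called. With size factors of DESeq2 they were 0.048, 0.44, 0.95, 1.31, -0.60, 0.41, 0.19 and 0.99, with 42 and 28 called. With reads of 21 to 23 nt as denominator they were -0.52, -0.12, 0.38, 0.74, -1.16, -0.15, -0.38 and 0.43, with 82 and 9 called. The denominator is a single number per library, so it shifts all members alike. Counting only identical tags took miR-200b past the fold threshold (-1.04), and gave -1.04 for the family, -1.30 for the MIR200B cluster and 0.93 for the difference between the clusters. Adding shifted starts gave -0.95, -1.13 and 0.72 for the last 3. Under the other counting rules and tests, and with 1 read added to each count, the members kept their direction and their side of the thresholds, the 2 other filters on low counts left the numbers of calls within 1.5 times, and all 20 shares with the listed 3′ end stayed within their intervals. Of the checks chosen after seeing the data, comparing 22 bases in place of 20 lowered the A5G share in the dry period to 2.15%, and the others, on tags with at least 5 reads and over 18 bases, left the shares of A5G and of shifted starts within their intervals.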
